A study of Homo sapiens with 2 samples.

Results

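The genes described here make cholesterol and fatty acids or control that synthesis. They are 33 named genes, and each was taken as the row of the table of all genes that carries exactly its symbol. All 33 were found, among 37364 genes listed, and all 33 reached a mean of at least 1 RPKM (reads divided by transcript length and by sequencing depth), the level from which a gene is called measured here. They were sorted by role into 4 sets, namely 6 regulators and sterol carriers, 7 enzymes from acetyl-CoA to farnesyl diphosphate, 10 enzymes from there to cholesterol, and 10 genes of fatty acid synthesis and remodelling. They are not the whole of either pathway.

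The levels come from D407, a human cell line that the labels call adult retinal pigment epithelium (RPE), the pigmented layer behind the photoreceptors. The series holds 2 RNA libraries enriched on oligo(dT) beads, 1 from cells treated with clusterin and 1 from control cells, both grown with 10% fetal bovine serum. Clusterin, also called apolipoprotein J, is a secreted chaperone that travels on lipoprotein particles. Its dose and time are not given in the sources used here, nor whether the serum stayed in the medium. With 1 library per group no difference was tested. Each interval below covers counting error only. Fewer cells of a type and less RNA per cell cannot be told apart in these libraries, nor can the treatment and any other difference between them.

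Cholesterol is built from acetyl-CoA through mevalonate, isoprenoid diphosphates, squalene and lanosterol. Its synthesis is switched on by the sterol regulatory element binding proteins (SREBPs), transcription factors that begin life in the membrane of the endoplasmic reticulum. When membrane sterols are scarce, the escort protein SCAP carries them to the Golgi, where proteases release the active factor. When sterols are plentiful, the INSIG proteins hold SCAP back. SREBP-2 acts mainly on cholesterol genes and SREBP-1 mainly on fatty acid genes. The RPE takes up lipid-rich photoreceptor tips and lipoproteins and also makes and exports cholesterol.

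The control library had 38236985 reads and the clusterin library 33177091, as recovered from the levels, and 13244 genes were measured. Most genes were a little lower in the clusterin library: 70.2% of measured genes had a log2((clusterin RPKM + 1)/(control RPKM + 1)) below 0, and the median was -0.06. This ratio is called the log2 ratio from here on, and values for the lipid genes are read against that general offset. Of 9 RPE markers, 5 were listed at 0 in both libraries (RPE65, RLBP1, LRAT, TTR and TYR), and only MITF and BEST1 reached 1 RPKM. The 9 summed to 13.0 and 12.7 RPKM, against 984 and 1003 for 4 simple epithelial keratins. Markers of cells rich in lipid enzymes were near 0. The 3 hepatocyte genes summed to 0.117 RPKM in the control and 0.0672 with clusterin, with ALB and CYP7A1 listed at 0, and the 3 adipocyte genes to 0.0971 and 0.0305, with ADIPOQ and FABP4 listed at 0. The 2 leukocyte genes summed to 0.0869 and 0.167, with PTPRC listed at 0, and the 2 endothelial genes to 1.005 and 0.961.

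Taken as a mean of the libraries, both arms of lipid synthesis were expressed well. Of the 33 genes, 29 stood above the median level of measured genes, 5.75 RPKM as a mean of the libraries, and 22 reached a mean of 10 RPKM. FDPS, EBP and SCD were the 3 highest, each above 50 RPKM, and TM7SF2 was the lowest. The order of the genes hardly differed between the libraries. Ranked by level, 18 of 33 held the same place in both, and the largest move was 3 places. Reads were recovered for 32 of the 33 genes, from 692 to 36126 over both libraries, and those 32 genes took 0.264% of all control reads and 0.242% of all clusterin reads.

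**Figure D1:**
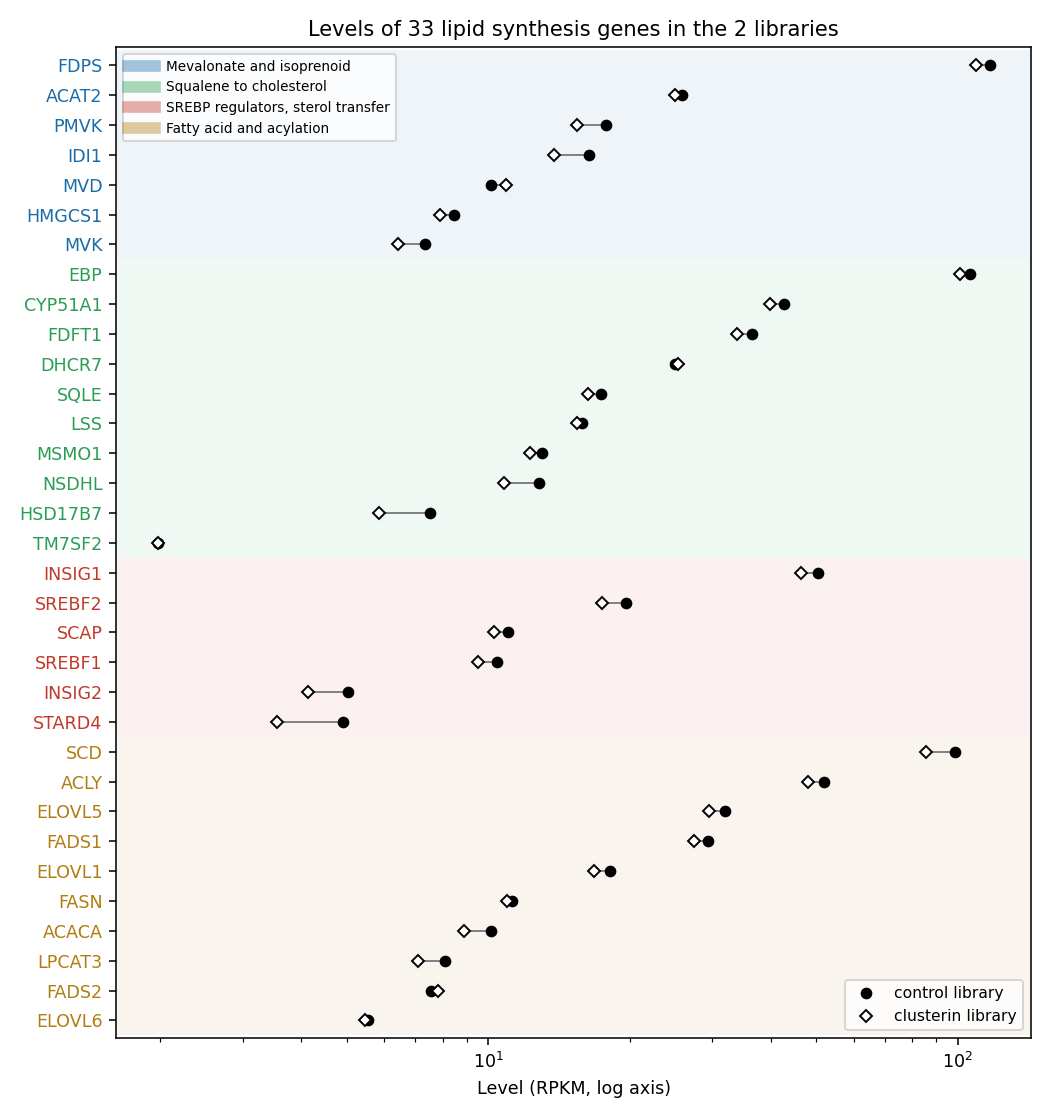
Level of each of the 33 genes in RPKM (horizontal log axis) in the control library (filled circles) and the clusterin library (open diamonds), grouped and coloured by role, 1 library per group. The open diamond lies left of the circle for 29 genes, and the levels run from 1.98 RPKM for TM7SF2 to 117 RPKM for FDPS.

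As a group the lipid genes lay slightly lower with clusterin than the general offset. The log2 ratio was below 0 for 29 of 33, against 70.2% of all measured genes, and 25 of 33 were under the median of the measured genes. The median log2 ratio of the 33 was -0.10, which is 0.04 under the median of all genes, and their median RPKM ratio was 0.93. None was 2-fold lower or 2-fold higher, thresholds passed by 0.113% and 0.106% of measured genes. These folds include the pseudocount of 1 RPKM. At 1.2-fold on that scale, 2 of 33 were lower (6.06%), STARD4 and HSD17B7, against 5.61% of measured genes, and 0 were higher, against 2.26%. INSIG2, with an RPKM ratio of 0.821, passed only with the smaller pseudocount of 0.1, which gave 3 of 33. With the pseudocount of 1 RPKM, the share of the 33 past 1.2-fold was near the background. The share of all measured genes was not computed with the pseudocount of 0.1.

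The regulators and the sterol carrier gave the lowest median of the 4 sets, -0.14, and all 6 lay below both 0 and the median of all genes. The counting intervals of SREBF1, SCAP and INSIG1 included 0.953, the median RPKM ratio of all measured genes. Those of SREBF2, INSIG2 and STARD4 lay below it. SREBF2, the gene of SREBP-2, stood at 19.6 RPKM in the control library and 17.4 in the clusterin library, from 3231 and 2491 reads. Its RPKM ratio was 0.889, with a 95% counting interval of 0.843 to 0.937. SREBF1, the gene of SREBP-1, was at 10.4 and 9.49 RPKM, a ratio of 0.909 (0.8503 to 0.972). In RPKM, SREBF2 was thus 1.88 times SREBF1 in the control and 1.84 times with clusterin. SCAP, the escort protein, stood at 11.0 and 10.3 RPKM, and its interval of 0.872 to 1.002 included 1.

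The retention factors were far apart in level. INSIG1, whose transcription SREBPs themselves drive, was at 50.3 and 46.3 RPKM (ratio 0.9203, 0.886 to 0.956). INSIG2, a relative that is less dependent on SREBPs, was at 5.03 and 4.13 RPKM; its 497 and 354 reads gave a ratio of 0.821 (0.714 to 0.943). INSIG1 was therefore 10.0 times INSIG2 in the control and 11.2 times with clusterin. STARD4, a cytosolic carrier that moves cholesterol between membranes, had the lowest ratio of the 33. It stood at 4.91 RPKM in the control, from 425 reads, and 3.55 with clusterin, from 267 reads, a ratio of 0.724 (0.619 to 0.846) and a log2 ratio of -0.38, and 2.05% of measured genes had a lower one. The STARD4 row spans chromosome 5, 111496033 to 111512536, on the minus strand (GRCh38). An antisense gene, STARD4-AS1, was listed at 0.497 and 0.567 RPKM, and whether counting used strand was not given in the sources used here.

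Promoter windows were compared because SREBPs bind a sterol regulatory element and work with the factors NF-Y and Sp1 bound nearby. RefSeq windows of 300 bases on GRCh38.p14 (250 before and 50 after each gene start) were matched by symbol for 29 of the 33 genes, which have 38 windows. ACAT2, FASN, FDFT1 and SQLE had none. Below are the 250 bases before the start for SREBF2, which held the only element match, and for STARD4, HSD17B7, INSIG2 and NSDHL, which are among the genes lowest with clusterin. The windows are chr22:41832855-41833104 (plus strand), chr5:111512536-111512785 (minus), chr1:162790452-162790701 (plus), chr2:118088221-118088470 (plus, the upstream one of a pair) and chrX:152830813-152831062 (plus). Each reads 5′ to 3′ along the gene, and capitals mark the element TCACNCCAC and the NF-Y box CCAAT, which reads ATTGG on the other strand.
SREBF2: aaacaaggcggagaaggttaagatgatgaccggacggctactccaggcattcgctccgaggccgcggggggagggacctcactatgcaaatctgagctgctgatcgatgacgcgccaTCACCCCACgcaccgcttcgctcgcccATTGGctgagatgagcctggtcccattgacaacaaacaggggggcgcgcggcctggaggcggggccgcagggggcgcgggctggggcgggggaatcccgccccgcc
STARD4: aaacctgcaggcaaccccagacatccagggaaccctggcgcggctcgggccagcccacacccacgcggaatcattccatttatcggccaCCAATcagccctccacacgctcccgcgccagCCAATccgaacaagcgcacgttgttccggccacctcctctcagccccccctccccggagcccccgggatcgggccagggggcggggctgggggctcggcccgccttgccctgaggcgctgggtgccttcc
HSD17B7: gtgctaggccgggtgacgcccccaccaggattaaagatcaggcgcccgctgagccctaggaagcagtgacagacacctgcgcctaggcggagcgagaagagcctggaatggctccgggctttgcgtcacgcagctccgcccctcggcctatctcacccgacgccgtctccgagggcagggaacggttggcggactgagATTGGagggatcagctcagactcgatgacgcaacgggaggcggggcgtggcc
INSIG2: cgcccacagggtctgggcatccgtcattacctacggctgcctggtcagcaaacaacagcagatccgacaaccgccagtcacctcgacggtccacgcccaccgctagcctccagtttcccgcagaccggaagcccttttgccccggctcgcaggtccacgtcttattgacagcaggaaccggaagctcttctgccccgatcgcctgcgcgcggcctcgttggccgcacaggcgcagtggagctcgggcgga
NSDHL: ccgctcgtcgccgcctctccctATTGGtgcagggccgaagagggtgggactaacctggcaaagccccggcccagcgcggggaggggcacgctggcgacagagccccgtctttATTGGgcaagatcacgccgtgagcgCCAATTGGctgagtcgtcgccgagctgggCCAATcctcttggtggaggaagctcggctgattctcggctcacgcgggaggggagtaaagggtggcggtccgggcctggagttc

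The sequences differ in what they carry. In SREBF2 the element starts 133 bases before the gene start and an NF-Y box follows at 106. STARD4 has NF-Y boxes at 161 and 130 bases before the start, HSD17B7 has 1 at 52 and another 8 bases after the start, beyond the printed stretch, and INSIG2 has none. NSDHL has 5 before its start, of which a pair on opposite strands overlaps by 2 bases. All these distances are from the RefSeq start. The deposited rows of SREBF2 and NSDHL start at 41833079 and 152830967, inside their printed stretches. The NSDHL box at 84 bases therefore lies within its deposited row. Over the whole set, searched on both strands, the NF-Y box was frequent. It was in a window of 22 of 29 genes (75.9%), against 39.7% of 27305 genes with a window and 43.8% of the 8051 of them that were measured here. At least 2 boxes in 1 window were found for 16 of 29 (55.2%), against 12.9% and 16.5%. By role, a box was found in 7 of 8 cholesterol genes, 5 of 6 mevalonate genes, 7 of 9 fatty acid genes and 3 of 6 regulators. CYP51A1, PMVK, SCAP, SREBF1, INSIG2, FADS1 and ELOVL6 had none.

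In percentage points the other motifs were nearer their share among measured genes. As a multiple of that share on both strands, the 2 forms of the sterol element given below stood higher than the NF-Y box. They rest on 1 and 5 genes. The Sp1 box GGGCGG was in 27 of 29 genes (93.1%), against 48.3% of all genes with a window and 78.6% of measured ones. The E-box CACGTG was in 4 (13.8%), namely ELOVL5, INSIG1, LSS and SCAP, against 8.77% and 13.1%. The element TCACNCCAC was in 1 of 29 (3.45%), against 1.39% and 1.47%. Without its first letter (CACNCCAC, a choice made after the data were seen) it was in 5, ACACA, IDI1, INSIG1, SCD and SREBF2, or 17.2% against 7.05% and 7.46%. On the forward strand alone that loosened element was in 1 of 29 (3.45%), against 3.35% and 3.34%. A match is not a bound site, and no match says only that these letters are absent from this window. The 22 genes with an NF-Y box had a median log2 ratio of -0.11 and the 7 without had -0.10, so the medians were close. Among all measured genes with a window, 3530 with the box had -0.07 and 4521 without had -0.06.

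**Figure D2:**
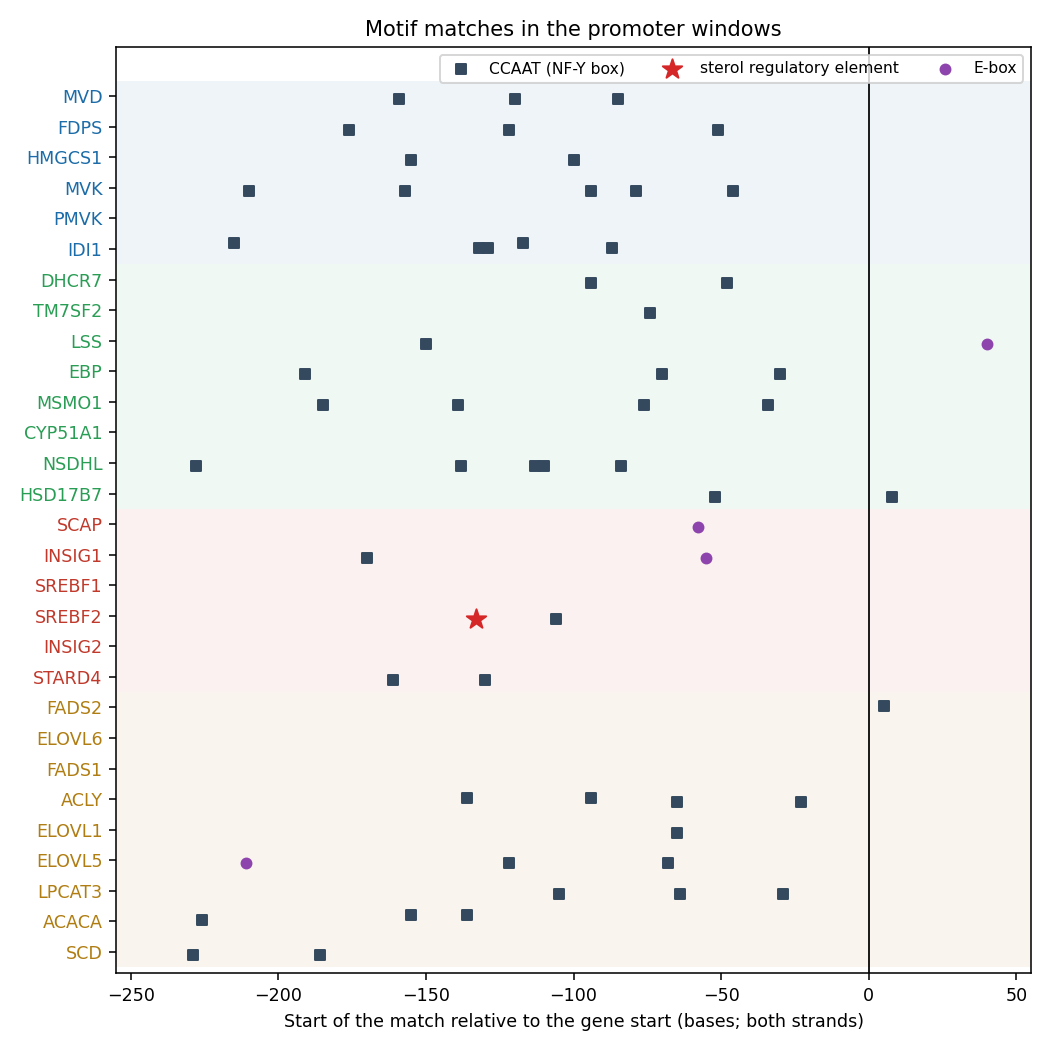
Start of each motif match relative to the gene start in bases (horizontal axis, both strands) for the 29 genes with a promoter window, grouped by role, with the windows of a gene drawn slightly apart. NF-Y boxes (squares) appear in 22 genes, the sterol regulatory element (star) in SREBF2 alone, and the E-box (circles) in 4 genes.

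The enzymes from acetyl-CoA to farnesyl diphosphate had a median log2 ratio of -0.09, with 6 of 7 under 0 and 5 of 7 under the median of all measured genes. ACAT2, the cytosolic thiolase that joins acetyl-CoA units, stood at 25.9 RPKM in the control and 25.0 with clusterin. HMGCS1, which makes HMG-CoA, was at 8.47 and 7.90 RPKM; its 1765 and 1428 reads gave a ratio of 0.932 (0.869 to 1.0004). The kinases further along the pathway were lower: MVK, mevalonate kinase, at 7.34 and 6.44 RPKM (ratio 0.877, 0.774 to 0.994). PMVK, phosphomevalonate kinase, stood at 17.8 and 15.4 RPKM (ratio 0.866, 0.782 to 0.959). The intervals of both kinases included 0.953, the median ratio of all measured genes. MVD, the decarboxylase that yields isopentenyl diphosphate, went the other way, at 10.2 and 10.9 RPKM from 697 and 650 reads.

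MVD had the highest ratio of all 33 genes, 1.07. Its interval of 0.964 to 1.198 included 1 but lay above 0.953, the median ratio of all measured genes. IDI1, the isomerase that acts on its product, stood at 16.4 and 13.8 RPKM from 1342 and 977 reads. Its ratio was 0.839 (0.772 to 0.912), the lowest of the 7, and its row spans chromosome 10, 1040023 to 1056699, on the minus strand (GRCh38). FDPS, farnesyl diphosphate synthase, was the most abundant of the 33, at 117 and 109 RPKM, with a ratio of 0.937 (0.905 to 0.969). It was 13.8 times HMGCS1 in the control and 13.9 times with clusterin. PMVK, MVD and IDI1, consecutive steps, thus lay below, above and below a ratio of 1, and the difference among them was not tested. FDPS has processed copies, of which FDPSP2 was listed at 0.599 and 0.539 RPKM, so a part of its reads could be shared.

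The enzymes from farnesyl diphosphate to cholesterol lay nearest the general offset, with a median log2 ratio of -0.08, 8 of 10 under 0 and 7 of 10 under the median of all measured genes. FDFT1, squalene synthase, stood at 36.4 and 33.9 RPKM (ratio 0.93, 0.881 to 0.982). SQLE, squalene epoxidase and a main control point, was at 17.4 and 16.3 RPKM, and its interval of 0.877 to 1.001 included 1. LSS, which closes the rings to lanosterol, was at 15.8 and 15.5 RPKM. CYP51A1, the lanosterol demethylase, was at 42.6 and 39.7 RPKM (ratio 0.934, 0.897 to 0.972). These 4 opening steps therefore had ratios of 0.93 to 0.976, around the median ratio of all measured genes, 0.953.

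The later steps were more mixed. TM7SF2, a sterol reductase, had the lowest level of the 33 and the same value in both libraries at 3 digits, 1.98 RPKM, and its reads could not be recovered. MSMO1, the methylsterol oxidase, was at 13.0 and 12.3 RPKM. NSDHL, the dehydrogenase that acts next, stood at 12.8 and 10.8 RPKM; its 800 and 583 reads gave a ratio of 0.84 (0.754 to 0.936). HSD17B7, the ketoreductase that completes this demethylation, was at 7.51 and 5.85 RPKM from 436 and 295 reads. Its ratio of 0.78 (0.6704 to 0.906) was the second lowest of the 33. HSD17B7 (chromosome 1, 162790702 to 162812818, plus strand, GRCh38) has a near-identical pseudogene, HSD17B7P2, listed at 0 in both libraries, and how shared reads were placed was not given in the sources used here. EBP, the sterol isomerase, was at 106 and 101 RPKM. DHCR7, a reductase of the last steps, was at 24.9 and 25.4 RPKM, and 2542 and 2246 reads gave an interval of 0.962 to 1.08. Of these later steps, MSMO1 and EBP thus lay near the offset, NSDHL and HSD17B7 below it, and TM7SF2 and DHCR7 above it. The difference among them was not tested.

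The fatty acid genes had a median log2 ratio of -0.11, with 9 of 10 under 0 and 7 of 10 under the median of all measured genes. ACLY, which makes cytosolic acetyl-CoA from citrate, stood at 51.8 and 48.0 RPKM (ratio 0.928, 0.899 to 0.958). ACACA, the carboxylase that commits acetyl-CoA to fatty acids, was at 10.1 and 8.88 RPKM, from 4415 and 3354 reads, a ratio of 0.876 (0.837 to 0.916). FASN, the synthase itself, was at 11.2 and 10.9 RPKM, and its interval of 0.9298 to 1.02 included 1. SCD, the desaturase that makes oleate, stood at 98.5 and 85.6 RPKM, from 20592 and 15534 reads. Its ratio of 0.869 (0.851 to 0.888) had the narrowest interval of the 33, and its difference of 12.9 RPKM was the largest in absolute level. The intervals of the carboxylase and the desaturase thus lay below 1 and that of the synthase between them did not, and the difference among the 3 was not tested.

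The elongases and further desaturases differed by member. ELOVL5, which lengthens polyunsaturated chains, stood at 31.9 and 29.5 RPKM (ratio 0.926, 0.885 to 0.969). ELOVL1, which makes very long saturated chains, was at 18.1 and 16.8 RPKM, with an interval of 0.851 to 1.01. ELOVL6, which lengthens palmitate, was at 5.56 and 5.46 RPKM, with an interval of 0.882 to 1.096. In RPKM, ELOVL5 was 1.76 times ELOVL1 in both libraries at 3 digits, and 5.73 and 5.40 times ELOVL6.

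FADS1 and FADS2, neighbouring desaturases that work in turn on polyunsaturated chains, lay on either side of a ratio of 1. FADS1 was at 29.4 and 27.4 RPKM (ratio 0.933, 0.895 to 0.973). FADS2 was at 7.57 and 7.82 RPKM, and 911 and 817 reads gave an interval of 0.939 to 1.14. FADS1 was 3.88 times FADS2 in the control and 3.50 times with clusterin. Their rows lie on opposite strands of chromosome 11 (FADS1 at 61799625 to 61817057 and FADS2 at 61816203 to 61867354, GRCh38) and share 855 bases, so without strand a part of their reads cannot be told apart. LPCAT3, which places polyunsaturated chains into phospholipids, was at 8.10 and 7.10 RPKM (ratio 0.877, 0.783 to 0.982).

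**Figure D3:**
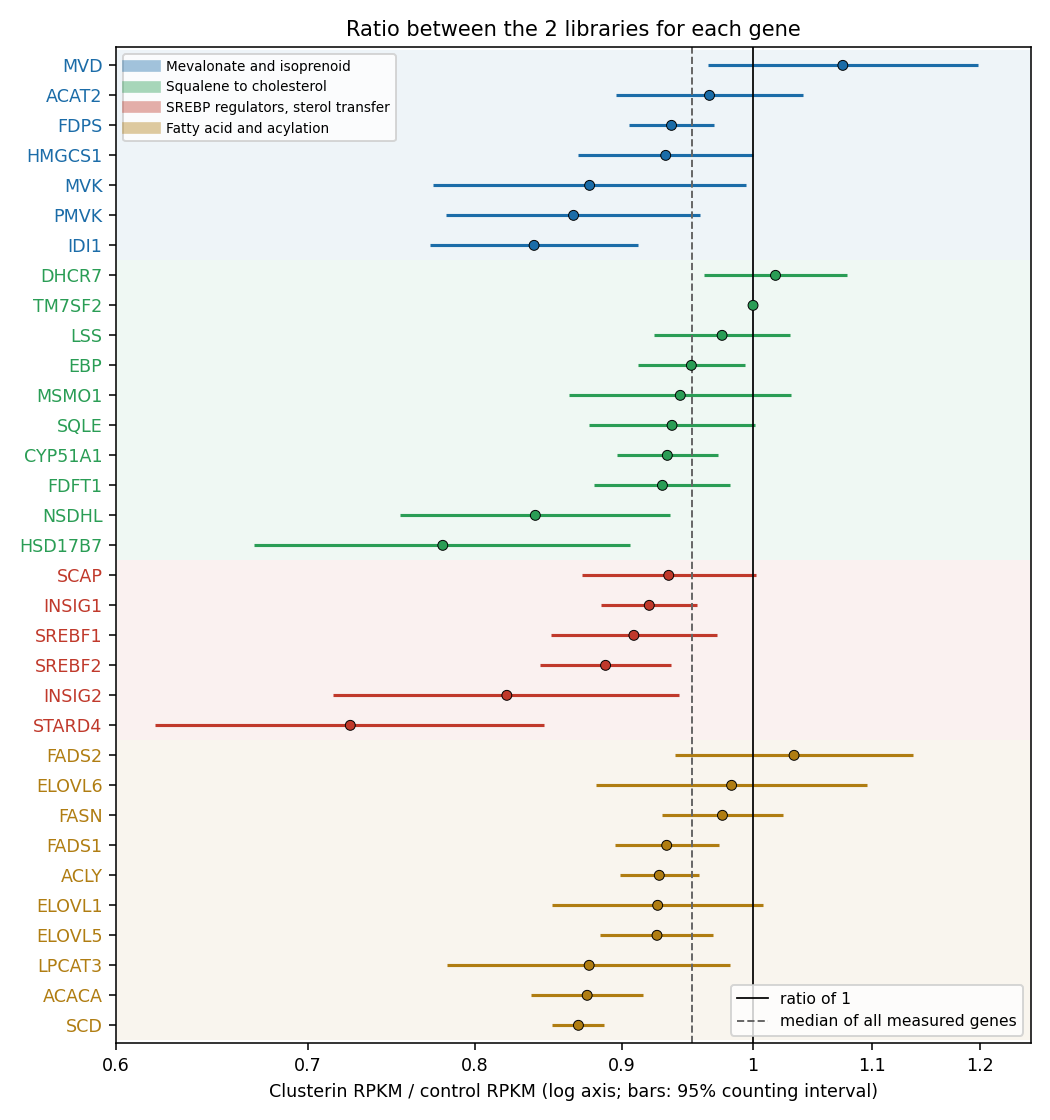
Clusterin RPKM divided by control RPKM for each gene (horizontal log axis), grouped by role, with bars for the 95% counting interval (TM7SF2 has none). The solid line marks a ratio of 1 and the dashed line the median of all measured genes, 0.953. The points run from 0.724 for STARD4 to 1.07 for MVD. All 6 regulator points lie left of the dashed line, which the bars of SREBF1, SCAP and INSIG1 cross.

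Counting intervals were compared with those of measured genes with reads in the overall range of the lipid genes, 692 to 36126. Genes were not matched by depth within that range, and more reads give a narrower interval, so the shares below are not strictly like for like. Of the 32 genes with reads, 20 had an interval wholly below a ratio of 1 (62.5%), against 34.1% of 8125 measured genes with reads in the same range, and 0 had one wholly above it, against 4.9%. The median ratio of those 8125 genes was 0.949. Against that median, 8 of 32 had an interval wholly below it (25.0%), against 11.5% of the 8125, and 2 of 32 wholly above it, against 15.2%. The 8 below were STARD4, HSD17B7, INSIG2, IDI1, NSDHL, SCD, ACACA and SREBF2, and the 2 above were DHCR7 and MVD. The 8 come from all 4 roles. The spread between the libraries was wider than counting error at each depth. For genes with 500 to 1000 reads, the robust SD of the log2 RPKM ratio was 0.164, the widest of the depth ranges compared. That was 1.51 times the SD of counting alone. The 3 lipid genes at this depth were STARD4, HSD17B7 and INSIG2, which had the lowest RPKM ratios of the lipid genes. Whether they lay outside that spread was not tested. For genes with 1000 to 3000 reads, among them 11 of the lipid genes, the robust SD was 0.108, or 1.54 times that of counting alone. It was 1.88 times for 3000 to 10000 reads, where 14 of them lay, and 2.85 times above 10000 reads. With 1 library per group, this spread holds both treatment changes and differences between cultures, which cannot be told apart, and the intervals cover counting error alone.

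In the authors' deposited table, 16 of the 33 genes had a q below 0.05 with a lower level in the clusterin library (48.5%), against 10.4% of all genes above 0 and 14.6% of measured genes. In the authors' deposited table, 0 had such a q with a higher level, against 1.63% and 1.99%. At a q below 0.01 in the authors' deposited table, 8 of 33 were lower, against 5.76% of all genes above 0. All 33 are measured genes, and the share of measured genes at that q was not computed, so this comparison is not like for like. These q-values compare the 2 libraries and count read sampling error only, so they favour genes with many reads, as most of the 33 are. The calls covered 5 of 6 regulators, 5 of 10 fatty acid genes, 3 of 7 mevalonate genes and 3 of 10 cholesterol genes. In the authors' deposited table the smallest q of the 33 was 4.07e-37, for SCD, followed by 5.76e-07 for ACACA and 0.000151 for ACLY. STARD4, with the lowest ratio, had a q of 0.000946 in the authors' deposited table, and HSD17B7 had 0.0129. When the same p was computed on recovered reads with the median log2 ratio of genes with at least 100 reads set to 0, 3 of 32 stayed called lower, ACACA, SCD and STARD4, against 2.26% of 19717 genes, and 0 were called higher, against 3.98%. The 19717 genes include some below 1 RPKM, while each of the 32 had at least 692 reads, so these shares are not matched for depth.

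**Figure D4:**
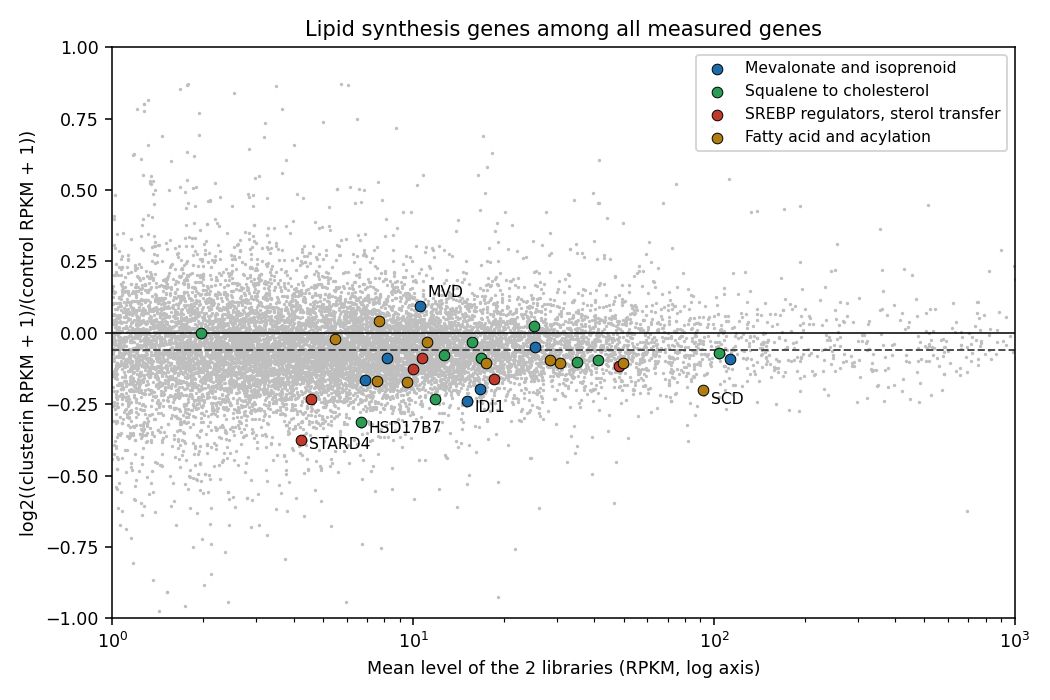
Log2 ratio (vertical axis) against mean level in RPKM (horizontal log axis) for all measured genes (grey) and the 33 lipid genes (coloured by role), 1 library per group; the dashed line is the median of all genes, -0.06. The 67 genes beyond 1 on the vertical axis or above 1000 RPKM are not shown. The coloured points lie within the cloud, 25 of 33 under the dashed line.

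Other genes of the same pathways had a median just above the general offset. Of 49 such genes (processing of SREBPs, isoprenoid branches, sterol esterification and nuclear receptors, fatty acid activation and elongation, and AMP-activated kinase), 42 were measured. Their median log2 ratio was -0.04, above the -0.06 of all genes, and it was 0.02 with the control rescaled so that the median of all genes was 0. Of the 42, 26 were under 0, against 70.2% of all measured genes, and 19 were under the median of all measured genes. By the q of the authors' deposited table, 9 of the 42 were below 0.05 with a lower level (against 14.6%), and 0 with a higher one (against 1.99%). The difference in median between these genes and the 33 was not tested.

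The lowest of these were C14orf1, a scaffold of the sterol demethylation enzymes, at 5.38 RPKM in the control and 4.15 with clusterin (log2 ratio -0.31), and HSD17B12, a reductase of fatty acid elongation, at 5.57 and 4.54 (-0.25). GGPS1, which makes geranylgeranyl diphosphate for protein prenylation, was at 6.72 and 5.59 RPKM (-0.23). ERLIN1, which helps to degrade proteins of the endoplasmic reticulum, was at 8.29 and 7.06 (-0.21), and ACSS2, which makes acetyl-CoA from acetate, at 7.13 and 6.08 (-0.20). The highest were PTPLA, a dehydratase of fatty acid elongation, at 6.50 and 7.91 RPKM (log2 ratio 0.25), and PDSS1, which builds the tail of coenzyme Q, at 2.78 and 3.32 (0.19). FADS3, a relative of FADS1 and FADS2, was at 9.67 and 10.4 RPKM (0.10), and FNTA, the shared subunit of protein prenyltransferases, at 12.8 and 13.7 (0.08). The proteases that release SREBPs were on either side of 0, MBTPS1 at 22.9 and 22.0 RPKM and MBTPS2 at 3.20 and 3.42, both named after their values were seen.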

How the data were processed

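The authors deposited 1 level per gene and library and a p-value and q-value per gene, and the file header names no unit for the levels. The submitters' processing notes name hg19 as the build and Bowtie, TopHat and Cuffdiff as tools, with no version or counting setting. The levels were read as RPKM made by the authors: for 484 of 537 small RNA genes, level times length gave whole numbers within 0.02 in both libraries at 1 fixed total each. For 476 of these the deposited p-value matched the Audic-Claverie p of those reads within 2%. Reads of other genes were recovered by finding the transcript length at which both levels were whole and gave the deposited p (19717 of 20500 genes above 0 in both libraries). A recovered read may be a pair. Of the 33 rows, 31 started within 2000 bases of the RefSeq gene on GRCh38, and coordinates are printed only for such rows.

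Log2 ratios used a pseudocount of 1 RPKM, which understates the change of low genes. Ratio intervals are exact Clopper-Pearson at 95%; without molecular identifiers, reads may repeat a molecule, so they cover counting error only. The 33 genes and all lists were chosen with earlier results of these data known. The text gives all 33 genes and, of the other pathway genes, the 5 lowest and 4 highest measured; reads and intervals are given for more genes than the rule asked. Protein sequences were not used here. Python 3.11.15, pandas 2.3.3 and SciPy 1.17.1 were used. The recovery of library totals and reads and the median log2 ratios of genes with set changes were tested on simulated data, and the other steps were not.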

Additional observations from a re-analysis of the deposited data

How the results depend on the processing

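The median log2 ratio of the 33 genes kept its sign with a pseudocount of 0.1 or 5 RPKM, without a filter, at a minimum mean of 5 RPKM, and with the control rescaled to a median log2 ratio of 0, where it was -0.03 and 25 of 33 genes lay below 0. Under that rescaling, which moves the median of all genes by 0.06, ACAT2, LSS, FASN and ELOVL6 moved above 0, at 0.02, 0.03, 0.03 and 0.04. The count of the 33 at least 1.2-fold lower was 2 as reported, 3 with a pseudocount of 0.1, 2 without a filter, 0 with a pseudocount of 5, 1 with the rescaled control and 1 with a mean of at least 5 RPKM. Among the other pathway genes that count was 1 as reported, 2 with a pseudocount of 0.1, 0 with a pseudocount of 5, 0 with the rescaled control, 2 without a filter and 0 with a mean of at least 5 RPKM; 1 gene was at least 1.2-fold higher with a pseudocount of 0.1 and 1 with the rescaled control, against 0 as reported. The share of all measured genes past 1.2-fold was computed only for the setting as reported, at 5.61% lower and 2.26% higher. The counts under the other settings therefore have no background beside them. The authors' deposited q called 16 of the 33 lower at 0.05 and 8 at 0.01, and the same p on recovered reads with the median log2 ratio set to 0 called 3. On the forward strand alone, 13 of 29 genes had an NF-Y box (44.8%), against 23.3% of all genes with a window and 25.6% of measured ones, and the loosened element was in 1 of 29 against 5 on both strands. No paired analysis was possible because each group has 1 library. The cause of each shift was not tested.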

Other observations

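The 7 other pathway genes with a mean under 1 RPKM were described after their values were seen. MYLIP, a ubiquitin ligase that marks lipoprotein receptors for degradation and a target of the sterol-sensing liver X receptors, stood at 0.792 RPKM in the control library and 0.363 in the clusterin library. Its 93 and 37 reads gave a ratio of 0.459 (0.304 to 0.678). NR1H3 and NR1H2, the genes of those receptors, stood at 5.67 and 5.70 RPKM and at 21.8 and 21.5. MLXIPL, a sugar-responsive activator of fatty acid genes, had 39 and 16 reads, a ratio of 0.473 (0.247 to 0.866). ACACB, the mitochondrial relative of ACACA, was at 0.978 and 0.753 RPKM, from 346 and 231 reads, a ratio of 0.769 (0.649 to 0.912). THRSP, ELOVL3 and ELOVL7 had 15 and 23, 18 and 22, and 27 and 18 reads, and each interval included 1. ELOVL4 was listed at 0 in both libraries.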
